A study of Mus musculus with 8 samples.

Results

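The genes described here encode the secreted and membrane-bound metalloproteinases that cut the extracellular matrix, together with the inhibitors that block them. Members were taken by gene symbol: Mmp, Adamts or Timp followed by the number of the family member. The rule gave 46 of the 24063 genes in the deposited tables, made up of 23 Mmp genes, 19 Adamts genes and 4 Timp genes. The rule used no measured value. Of the 46, 41 passed a filter on low counts and were tested (20 Mmp, 18 Adamts and 3 Timp), while *Mmp1a*, *Mmp25*, *Mmp27*, *Adamts19* and *Timp4* had too few counts.

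Matrix metalloproteinases (MMPs) are zinc enzymes made as inactive precursors. Between them they cut fibrillar collagen, gelatin, laminin and other matrix proteins, and several also release growth factors held in the matrix. ADAMTS enzymes carry thrombospondin repeats and act mainly on proteoglycans and procollagens, and tissue inhibitors of metalloproteinases (TIMPs) sit in the active site of both kinds of enzyme. In the developing kidney the ureteric bud, the epithelium that answers GDNF (glial cell line-derived neurotrophic factor) through the receptor Ret, has to cut into the matrix around it as it branches.

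RNA-Seq was performed on 8 tubuloid cultures, which are 3D cultures of primary kidney fragments set in Matrigel, an extract of basement membrane. All 8 came from kidneys of postnatal day 7 to 10 mice with the genotype Pkd2fl/fl Pax8rtTA TetOCre mTmG, so the controls carried the same alleles as the treated cultures: a floxed *Pkd2* gene, a doxycycline-dependent Cre controlled by rtTA from the renal epithelial *Pax8* promoter, and a red-to-green reporter. The labels of these cultures name no doxycycline. The GDNF group (cultures 6, 12, 17 and 22) received GDNF for a 24 h pulse, the control group (cultures 3, 7, 14 and 21) received the same growth factor medium without it, and RNA was isolated on day 7. The question asked of these genes was whether their RNA differed between pulsed and control cultures. Nothing in the labels says which cultures share an animal, so p-values measure the spread between these cultures.

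Total counts ranged from 72991721 to 97490625 per culture, and the correlation of log2 levels between pairs of cultures ranged from 0.971 to 0.994. Levels are given on 2 scales. CPM, the counts of a gene scaled to the library's total count and TMM factor, compare a gene between cultures, and the authors' TPM, which also divide by transcript length, compare genes with each other. The TMM factor was 0.790 in control 3, 0.963 to 0.982 in the other controls and 1.07 to 1.11 in the GDNF cultures, so the scale itself differed between the groups. With TMM the median log2 fold change of all 16557 genes tested was 0.033, with library size only it was 0.25, and on the authors' TPM it was 0.40.

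A row of 10 Mmp genes lies on chromosome 9, from *Mmp13* to *Mmp7*, over 427 kb (GRCm38, chr9:7272514-7699585). The 250 bases before the RefSeq start of 4 of them that were read at 10 TPM or more, and of *Mmp8*, a neighbour read below 1 TPM, are shown because they differ in 2 short motifs. Letters in capitals mark TGACTCA or TGAGTCA, the AP-1 motif on either strand, and TATAAA, searched on the strand of the gene. The sequences are from RefSeq (GRCm38.p6) and run 5′ to 3′ up to the base before the start.
Mmp13, chr9:7272264-7272513, + strand: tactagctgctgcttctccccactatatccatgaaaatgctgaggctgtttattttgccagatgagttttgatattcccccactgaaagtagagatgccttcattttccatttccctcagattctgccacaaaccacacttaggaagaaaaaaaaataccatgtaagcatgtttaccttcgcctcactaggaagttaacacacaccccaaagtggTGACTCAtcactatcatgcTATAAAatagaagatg
Mmp3, chr9:7445572-7445821, + strand: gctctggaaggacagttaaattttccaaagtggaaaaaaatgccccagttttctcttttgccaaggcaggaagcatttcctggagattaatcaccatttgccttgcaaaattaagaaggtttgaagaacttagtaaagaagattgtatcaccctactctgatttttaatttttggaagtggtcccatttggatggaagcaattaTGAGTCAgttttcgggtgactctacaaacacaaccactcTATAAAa
Mmp10, chr9:7502092-7502341, + strand: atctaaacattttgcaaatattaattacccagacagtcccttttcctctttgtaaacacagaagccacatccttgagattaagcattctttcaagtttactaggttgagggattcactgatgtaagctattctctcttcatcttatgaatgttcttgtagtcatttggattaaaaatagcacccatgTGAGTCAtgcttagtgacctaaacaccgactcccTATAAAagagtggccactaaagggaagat
Mmp7, chr9:7691840-7692089, + strand: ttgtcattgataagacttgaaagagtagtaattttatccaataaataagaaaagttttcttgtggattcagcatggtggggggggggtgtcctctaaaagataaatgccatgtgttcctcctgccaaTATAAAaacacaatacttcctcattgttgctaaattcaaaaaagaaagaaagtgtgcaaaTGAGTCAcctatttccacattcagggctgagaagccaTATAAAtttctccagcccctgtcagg
Mmp8, chr9:7558179-7558428, + strand: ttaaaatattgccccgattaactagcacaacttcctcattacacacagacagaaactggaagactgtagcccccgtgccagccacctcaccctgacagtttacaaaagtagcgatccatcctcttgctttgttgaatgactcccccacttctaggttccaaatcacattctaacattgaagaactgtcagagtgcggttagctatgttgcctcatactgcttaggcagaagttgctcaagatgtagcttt

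The AP-1 letters began 35 bases before the start in *Mmp13*, 46 in *Mmp3*, 63 in *Mmp10* and 63 in *Mmp7*. TATAAA began 16, 7, 29 and 26 bases before the start of the same genes, so that in each the AP-1 letters came first, by 19, 39, 34 and 37 bases. *Mmp7* held a further TATAAA farther upstream, and *Mmp8* held neither motif in this window.

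A promoter window was found for 32 of the 46 members. Some genes had several starts and so several windows, and a gene counted if any of its windows held the letters. For *Mmp12* the window before the gene's first base held no AP-1 letters, and that of a start inside the gene (chr9:7347124-7347373) did. A further window of *Mmp7*, not shown above, held neither motif. AP-1 letters were present in 7 of the 32, all of them Mmp genes of the chromosome 9 row (*Mmp1a*, *Mmp1b*, *Mmp3*, *Mmp7*, *Mmp10*, *Mmp12* and *Mmp13*), against 5.16% of 27025 genes with a window. Both motifs together were present in 6 of the 32, against 0.574% of all genes. None of the 10 Adamts windows and none of the 4 Timp windows held the AP-1 letters. TATAAA was present in 9 of the 32 members (8.94% of all genes), and AGGAAG or CTTCCT, the core letters of an ETS motif on either strand, in 13 of the 32 (32.3% of all genes). No window was matched for *Adamts4*, *Adamts5*, *Adamts6*, *Adamts7*, *Adamts8*, *Adamts10*, *Adamts15*, *Adamts16*, *Adamts19*, *Mmp2*, *Mmp9*, *Mmp16*, *Mmp17* and *Mmp19*. Neighbouring paralogues are not independent of each other, and a match in the letters is a description of the sequence.

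The 4 shown promoters with both motifs belonged to the more abundant genes of the row: the mean over the 8 cultures was 65.5 TPM for *Mmp7*, 54.7 TPM for *Mmp13*, 40.3 TPM for *Mmp3* and 25.1 TPM for *Mmp10*. The same letters also stood before *Mmp1b* (0.769 TPM) and *Mmp1a* (0.0437 TPM). *Mmp12*, with AP-1 letters only before its start inside the gene and no TATAAA, was at 0.930 TPM. *Mmp8*, *Mmp27* and *Mmp20* had no AP-1 letters and means of 0.231, 0.222 and 0.230 TPM. The row thus split into 4 genes at 10 TPM or more and 6 below 1 TPM, and the motifs were found on both sides of that divide.

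**Figure D1:**
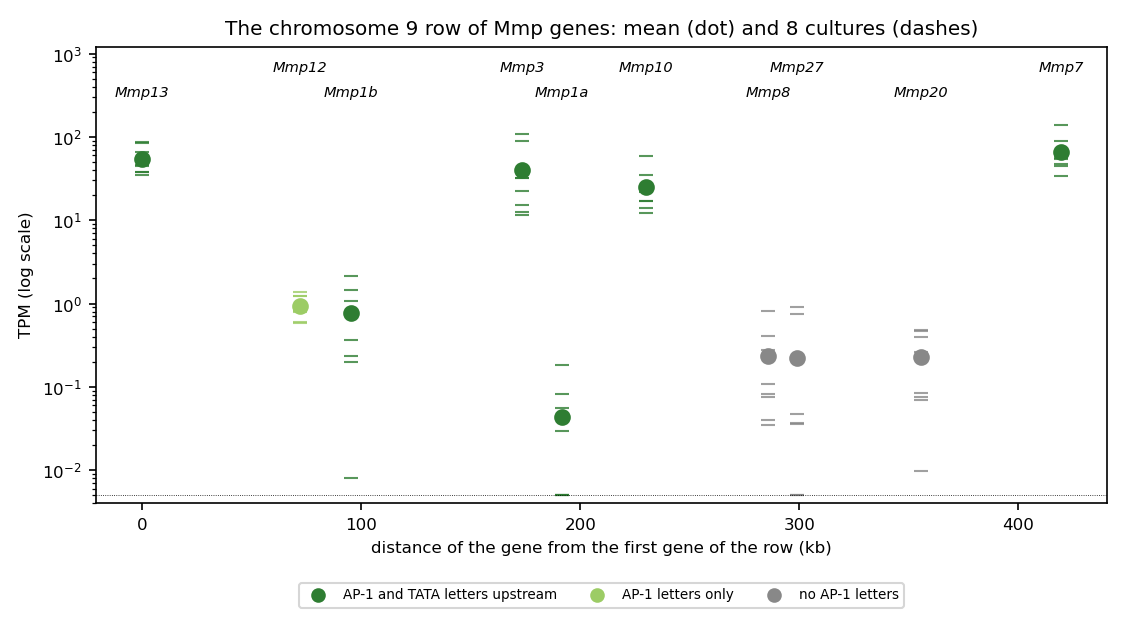
TPM on a log scale for the 10 Mmp genes of chromosome 9, placed by distance in kb from the first gene; dots are means over 8 cultures, dashes the cultures, and values under 0.005 TPM are drawn on the dotted line. The 4 genes at 10 TPM or more carry AP-1 and TATA letters, and so do *Mmp1b* and *Mmp1a* at 0.769 and 0.0437 TPM.

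Taking all 46 members by level, 3 averaged 100 TPM or more, 13 lay between 10 and 100 TPM, 12 between 1 and 10 TPM and 18 below 1 TPM. *Timp1* was the highest, at 450 ± 291 TPM in control and 388 ± 174 TPM in GDNF cultures (SD, n = 4). *Mmp14*, which encodes the membrane-type enzyme MT1-MMP, followed at 125 ± 25.1 and 181 ± 24.8 TPM, and *Timp2* at 118 ± 24.1 and 134 ± 19.6 TPM (SD, n = 4). After them came *Mmp2* with a mean of 98.9 TPM over all cultures, then *Mmp7*, *Adamts1* (61.0 TPM), *Mmp13*, *Mmp23* (47.1 TPM), *Timp3* (44.7 TPM) and *Mmp3*. The most abundant inhibitor was thus above the most abundant enzyme in 8 of 8 cultures. For none of the 45 neighbouring pairs in this order did the ranges over cultures stand apart. Within cultures, 3 of these pairs kept their order in 8 of 8 (*Timp1* over *Mmp14*, *Adamts4* over *Mmp19* and *Mmp15* over *Mmp8*). With TPM summed over transcripts *Adamts10* entered the 10 highest in place 5 and *Mmp3* left them.

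**Figure D2:**
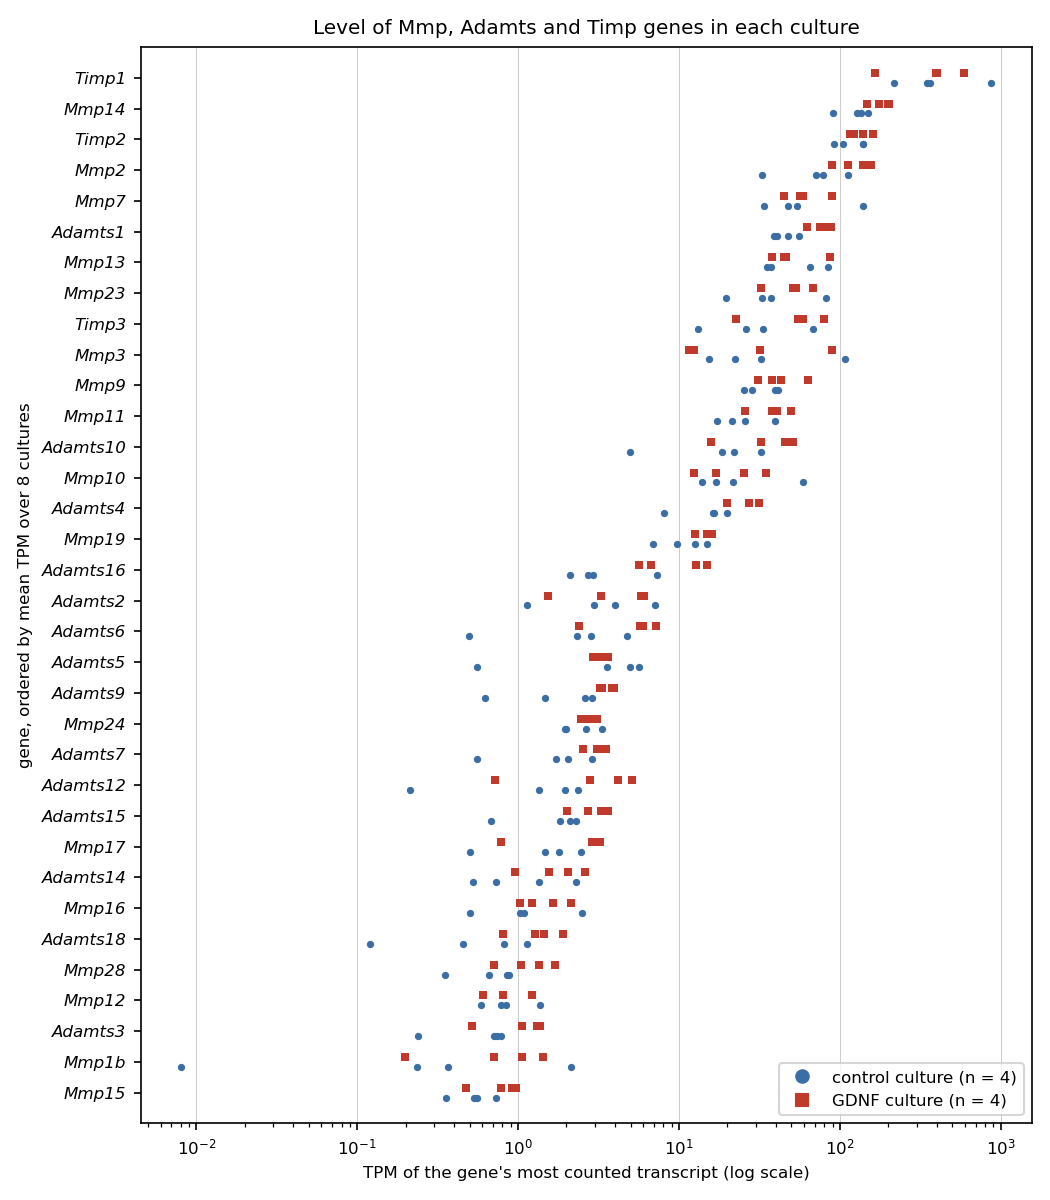
TPM of the most counted transcript on a log scale for members averaging 0.5 TPM or more, one row per gene, with circles for the 4 control and squares for the 4 GDNF cultures. *Timp1*, *Mmp14* and *Timp2* stand at the top with means of 419, 153 and 126 TPM, and the rows overlap with their neighbours throughout.

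The inhibitors summed to 604 ± 331 TPM in control and 577 ± 207 TPM in GDNF cultures, and the Mmp genes to 518 ± 133 and 640 ± 110 TPM (SD, n = 4). *Timp1* made up 67.2 to 80.8% of the Timp sum in controls and 54.2 to 72.9% after the pulse. The ratio of Timp to Mmp TPM, which does not depend on scaling between cultures, ranged from 0.863 to 1.64 in controls and from 0.634 to 1.11 in GDNF cultures, so the groups overlapped. These sums and ratios do depend on taking the most counted transcript. Summed over its 3 listed transcripts, *Timp1* averaged 1404 TPM, against 419 TPM by that transcript. The counts of the 3 differed by at most 2.3% within a culture. The Adamts sum was smaller, at 104 ± 25.8 TPM in control and 180 ± 16.3 TPM in GDNF cultures (SD, n = 4). The Adamts sums did not overlap in TPM (65.3 to 121 against 159 to 198), whereas in CPM, with the TMM scale, they did (323 to 549 against 484 to 697).

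No member passed the comparison of GDNF with control at an adjusted p of 0.05 (edgeR quasi-likelihood test, Benjamini-Hochberg adjustment over 16557 genes), and nor did any other gene (0.0% of those tested). The smallest adjusted p was 0.167, among the members and among all genes alike. At an unadjusted p of 0.05, 4 of 41 members were higher after the pulse (*Mmp8*, *Adamts4*, *Adamts16* and *Adamts17*), beside 9.25% of all genes tested, and 0 were lower, beside 12.9%. The members' share of higher genes was close to that background. With DESeq2, 0 of the 26 members with an adjusted p passed 0.05, beside 10.6% of all genes given one, and the smallest of the 26 was 0.0775.

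By sign alone, 25 of the 41 log2 fold changes were above 0, beside 52.5% of all genes, and their median was 0.19 against 0.033 for all genes. The 3 families did not look alike: the 20 Mmp genes were divided 10 above and 10 below 0 with a median of 0.022, 14 of the 18 Adamts genes were above 0 with a median of 0.48, and the 3 Timp genes had a median of -0.21. Across the other scalings and tools 14 or 15 of the 18 Adamts genes tested were above 0 (14 of 19 with no filter, 12 of 15 with a minimum of 1 CPM in 4 cultures), and their median was 0.42 to 0.46 above that of all genes. Single cultures moved it more: the median was 0.27 without control 3 (13 of 19 above 0), which is 0.23 above that of all genes, and 0.65 without control 14, which is 0.62 above. The Timp median turned to 0.010 with library size only, which is still 0.24 below the median of all genes on that scale. These family counts are descriptions, and no test was made of them.

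**Figure D3:**
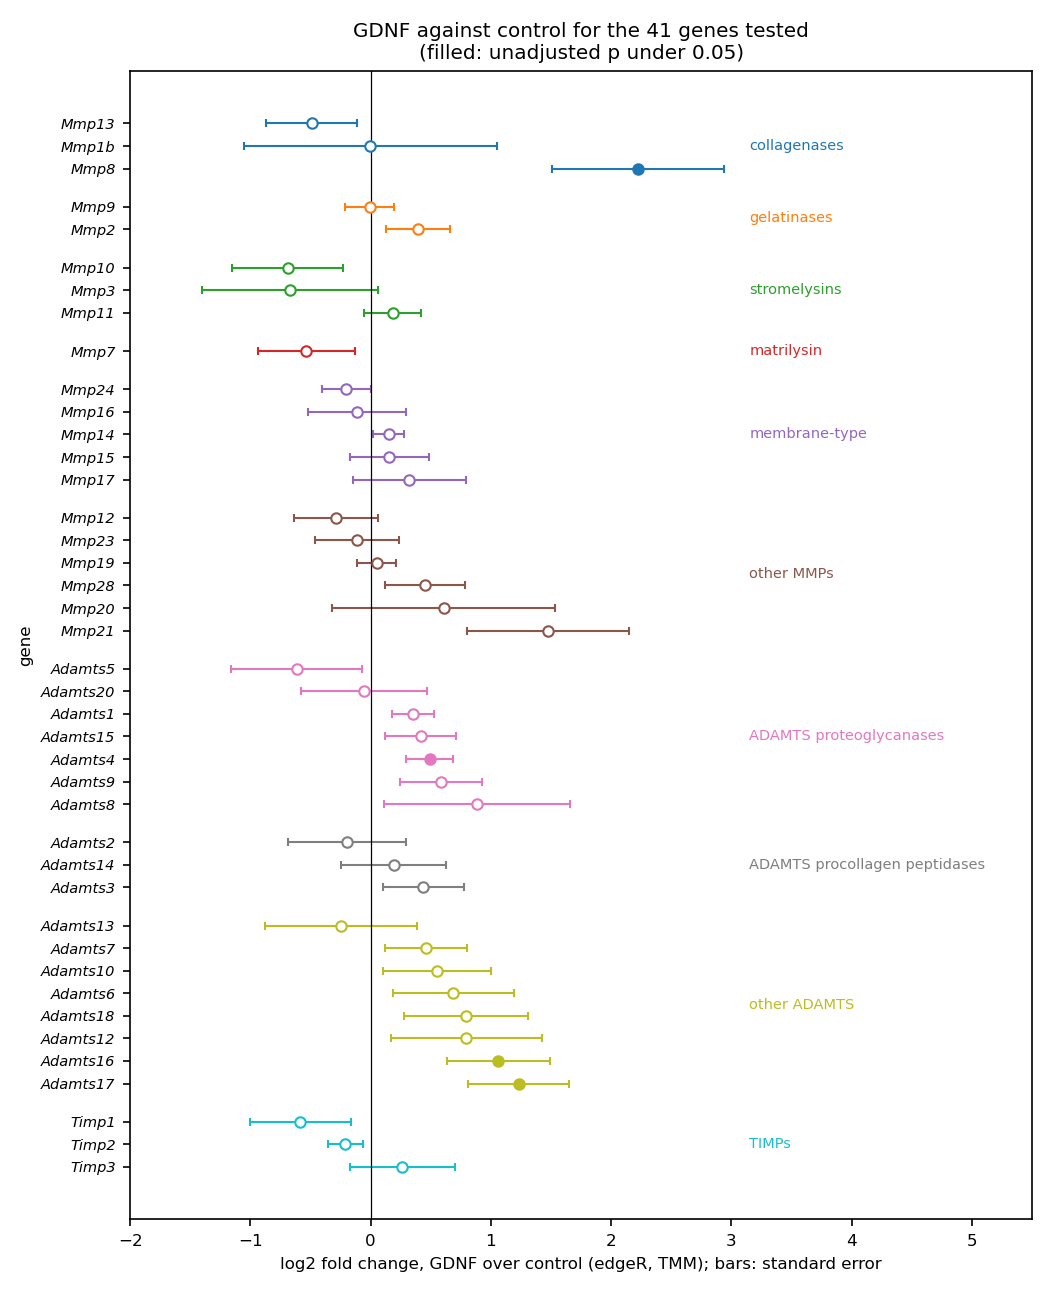
Log2 fold change of GDNF over control for each of the 41 tested genes, grouped by role; bars are standard errors and filled points have an unadjusted p under 0.05. The 4 filled points are *Mmp8*, *Adamts4*, *Adamts16* and *Adamts17*, and none of the 41 passed after adjustment.

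Among the inhibitors, *Timp1* was at 491, 599, 1446 and 532 CPM in control cultures 3, 7, 14 and 21 and at 233, 536, 781 and 495 CPM in GDNF cultures 6, 12, 17 and 22. Control 14 was far above every other culture and GDNF 6 far below, and the groups overlapped. The log2 fold change was -0.58 ± 0.42 (SE), with an unadjusted p of 0.195 and an adjusted p of 0.427. Leaving out control 14 brought it to -0.080, so most of the difference in mean lay in that culture.

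For *Timp2*, which can both inhibit *Mmp2* and help *Mmp14* to activate it, the controls were at 286, 235, 314 and 291 CPM and the GDNF cultures at 226, 221, 251 and 274 CPM. Control 7 lay among the GDNF cultures, while the other 3 controls were above all of them. In the fit the log2 fold change was -0.21 ± 0.14 (SE, unadjusted p = 0.175, adjusted p = 0.404), and it was 0.010 with library size only.

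*Timp3*, the inhibitor that binds the matrix and also blocks several ADAM and ADAMTS enzymes, was at 52.5, 97.3, 199 and 71.1 CPM in controls and 57.0, 138, 187 and 122 CPM after GDNF. Cultures 14 and 17 were the highest of their groups and cultures 3 and 6 the lowest, and the log2 fold change was 0.26 ± 0.44 (SE, adjusted p = 0.749). It was 0.77 (unadjusted p = 0.058) without control 14 and 0.011 without GDNF 17. *Timp3* lies inside the gene *Syn3* on the opposite strand and 21.3% of its exon bases are shared with it, and *Syn3* itself was at 1.53 to 8.85 CPM. *Timp4* had 6, 9, 17 and 11 counts in the controls and 7, 24, 8 and 7 counts in the GDNF cultures, which was too low to test.

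The membrane-type enzymes activate other proteinases at the cell surface. *Mmp14* was at 201, 206, 217 and 224 CPM in controls and at 206, 263, 228 and 243 CPM in GDNF cultures, which made it the steadiest member, with an SD within groups of 0.12 on the log2 scale. GDNF 6 lay among the controls and the other 3 GDNF cultures above them. GDNF over control gave a log2 fold change of 0.15 ± 0.13 (SE, unadjusted p = 0.278, adjusted p = 0.510). Of the others of this type, *Mmp24* (log2 fold change -0.20), *Mmp16* (-0.11), *Mmp15* (0.16) and *Mmp17* (0.32) each averaged below 3 TPM over all cultures, and *Mmp25* had 0 to 12 counts in any culture.

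Gelatinase A, encoded by *Mmp2*, was at 85.5, 150, 211 and 126 CPM in controls and at 145, 170, 237 and 201 CPM in GDNF cultures. Controls 7 and 14 stood within the range of the GDNF cultures and controls 3 and 21 below it. From these values the fitted log2 fold change was 0.39 ± 0.26 (SE, unadjusted p = 0.166, adjusted p = 0.394). It was 0.64 without control 14, and the unadjusted p then passed 0.05.

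Gelatinase B, encoded by *Mmp9*, was at 69.2, 81.5, 55.9 and 72.3 CPM in controls and at 52.5, 60.5, 68.6 and 95.7 CPM after the pulse. GDNF 22 was the highest of all and GDNF 6 the lowest, so the GDNF group enclosed the controls. Its estimated log2 fold change was -0.0087 ± 0.20 (SE, adjusted p = 0.985), and its sign changed with the scaling and with single cultures.

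Since *Mmp14*, *Timp2* and the precursor of *Mmp2* form a complex at the cell surface, their proportions were also taken within each culture. The ratio of *Timp2* to *Mmp14* TPM was 1.02, 0.819, 1.03 and 0.929 in controls 3, 7, 14 and 21 and 0.784, 0.603, 0.789 and 0.809 in GDNF cultures 6, 12, 17 and 22. The lowest control was thus just above the highest GDNF culture. The ratio of *Timp2* to *Mmp2* overlapped, at 1.25 to 2.81 against 0.892 to 1.31. *Mmp14* and *Mmp2* together made up 34.6 to 46.6% of the Mmp TPM in controls and 45.6 to 50.2% in GDNF cultures. These ratios were chosen with the values known and were given no test.

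Collagenases open the triple helix of fibrillar collagen. *Mmp13* was at 150, 140, 62.4 and 54.4 CPM in controls and at 64.2, 117, 50.6 and 58.2 CPM in GDNF cultures. Controls 3 and 7 and GDNF 12 were high and the remaining cultures lay close together. The log2 fold change was -0.49 ± 0.38 (SE, unadjusted p = 0.226, adjusted p = 0.457).

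The neutrophil collagenase *Mmp8* was at 0.0831, 0.115, 0.0534 and 0.155 CPM in controls, from 6, 11, 5 and 13 counts, and at 0.367, 0.0997, 0.503 and 0.954 CPM in GDNF cultures, from 34, 10, 49 and 77 counts. GDNF 12 stood among the controls and the other 3 GDNF cultures above them all. In the fit the log2 fold change was 2.23 ± 0.71 (SE, unadjusted p = 0.011, adjusted p = 0.167), the largest of the 41, at a level below 1 CPM in every culture. Summed over the 5 neutrophil markers in the tables, the level was 0.983 to 2.16 CPM in controls and 0.270 to 3.35 CPM in GDNF cultures, with the defining markers *Elane*, *Mpo* and *Csf3r* under 1 CPM throughout. *S100a8*, on the same list, was at 0.485 to 1.14 CPM in controls and at 0.140, 0.399, 1.53 and 2.02 CPM in GDNF cultures 6, 12, 17 and 22. It was thus highest in the 2 cultures with the highest *Mmp8*. GDNF 6, however, was above every control for *Mmp8* and had the lowest *S100a8* and the lowest sum of the list. *Csf3r* had 3 and 6 counts in GDNF 6 and 12 and 0 in every other culture. The part of these markers in the *Mmp8* values was not tested.

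The interstitial collagenases of the mouse were scarce. *Mmp1b* had 1 to 248 counts in controls and 20 to 140 in GDNF cultures, with a log2 fold change of -0.0047 ± 1.05 (SE). Of its 75-base stretches, 12.8% also occur in other genes, most often *Mmp1a*. It also shares 10.8% of its exon bases with *Mmp12* on the opposite strand. *Mmp1a* had 0 to 18 counts. Reads may have been divided between these genes.

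Stromelysins cut proteoglycans, laminin and fibronectin and activate other Mmps. *Mmp3* was at 34.5, 17.3, 120 and 33.8 CPM in controls and at 12, 10.4, 79.9 and 27.1 CPM in GDNF cultures. Control 14 and GDNF 17 stood apart from the rest of their groups. GDNF over control gave a log2 fold change of -0.67 ± 0.73 (SE, unadjusted p = 0.379, adjusted p = 0.606), and it was 0.18 without control 14 and -1.64 without GDNF 17.

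Its neighbour *Mmp10* was at 14 to 63.4 CPM in controls and 10.1 to 30.2 CPM after the pulse, and the highest culture of each group was again 14 and 17. From these values the fitted log2 fold change was -0.69 ± 0.46 (SE, adjusted p = 0.394). *Mmp3* and *Mmp10* shared 3.8 to 3.9% of their 75-base stretches. *Mmp11*, a stromelysin of stromal cells, differed little, with a log2 fold change of 0.18 ± 0.24 (SE).

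Matrilysin, *Mmp7*, is a short secreted Mmp made by epithelia and known in injured kidney tubules. It was at 40.6, 76.1, 18.6 and 24.1 CPM in controls and at 26.4, 39.3, 19.8 and 24.6 CPM in GDNF cultures. Control 7 was the highest, and the GDNF cultures all lay within the range of the controls. Its estimated log2 fold change was -0.53 ± 0.41 (SE, unadjusted p = 0.218, adjusted p = 0.451), and it was -0.012 when control 7 was left out. The 5 markers of injured tubules summed to 486 to 956 CPM in controls and 483 to 971 CPM in GDNF cultures.

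Of the remaining Mmp genes, *Mmp23* was the most abundant, at 24.2, 29.4, 73.6 and 31.0 CPM in controls and 24.9, 36.6, 48.7 and 36.1 CPM in GDNF cultures. Again 14 and 17 were highest, and the log2 fold change was -0.11 ± 0.35 (SE, adjusted p = 0.872). *Mmp12* (macrophage elastase, -0.29), *Mmp19* (0.05), *Mmp28* (0.45), *Mmp20* (enamelysin, 0.61) and *Mmp21* (1.48) are given as log2 fold changes, with *Mmp21* resting on 2 to 15 counts in controls and 15 to 49 after GDNF (unadjusted p = 0.053). *Mmp27* had 0, 0, 88 and 3 counts in controls and 0, 3, 60 and 3 in GDNF cultures, so that nearly all of its reads came from cultures 14 and 17. *Mmp19* shares 22.3% of its exon bases with *Tmem198b* on the opposite strand.

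**Figure D4:**
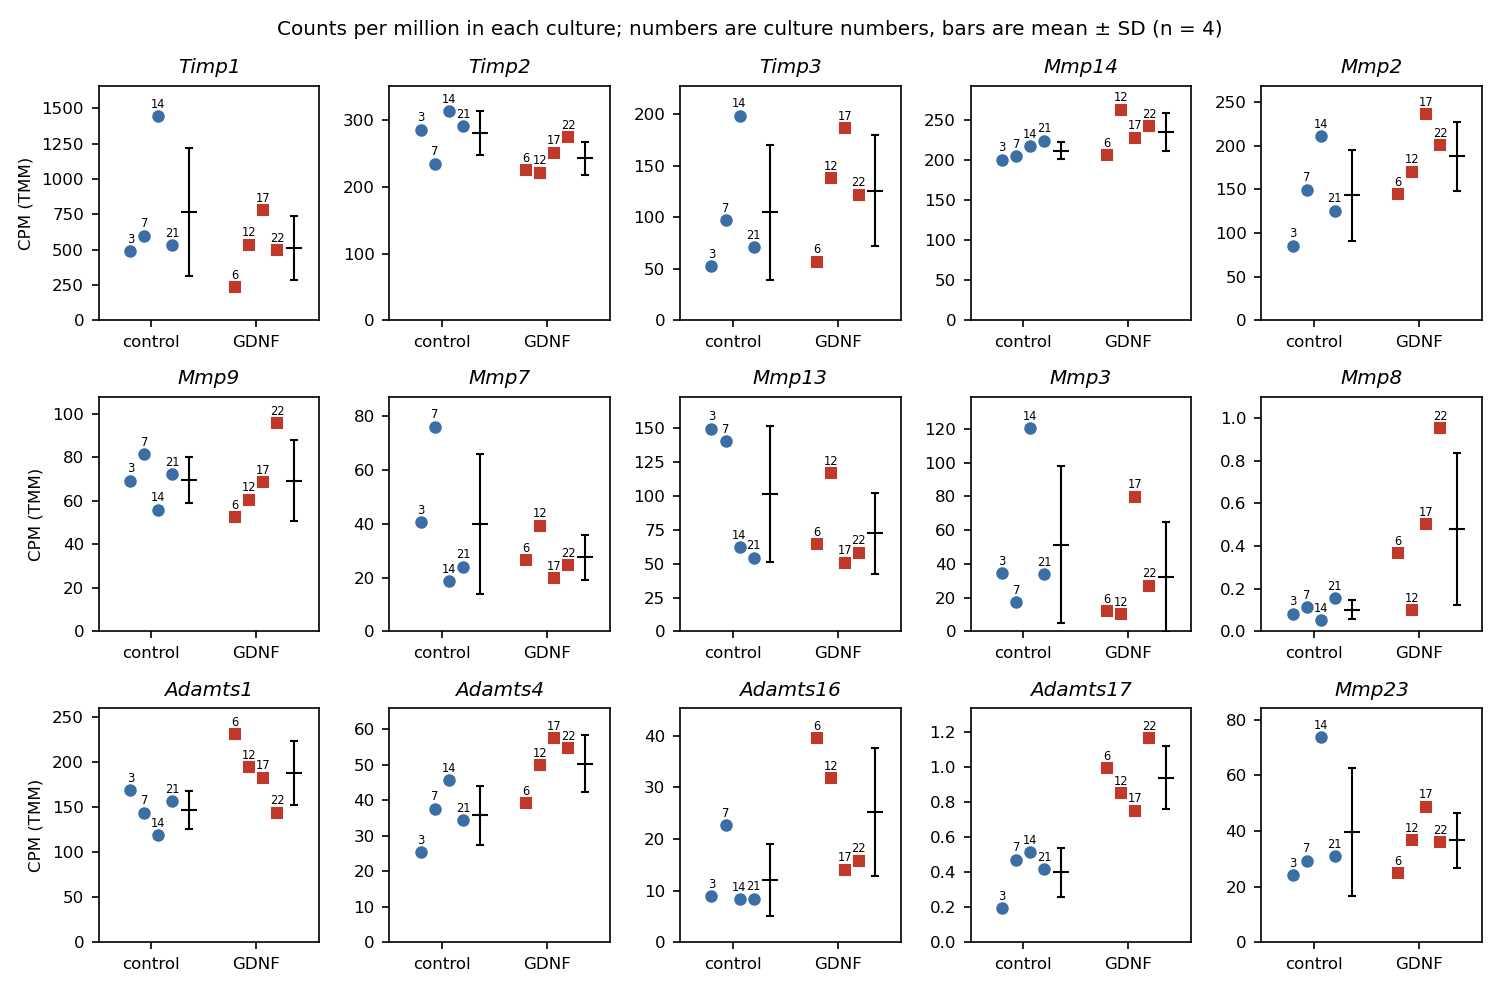
CPM (TMM) in each of the 8 cultures for 15 members, with control as circles, GDNF as squares, culture numbers above the points and bars for mean ± SD (n = 4). *Timp1*, *Mmp3* and *Mmp23* are highest in control 14 (1446, 120 and 73.6 CPM), and *Adamts17* is the one gene drawn whose groups do not overlap.

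The ADAMTS proteoglycanases cut large proteoglycans of the matrix such as aggrecan and versican. By the TPM of the most counted transcript, *Adamts1* held 32.5 to 61.9% of the family's TPM in controls and 33.8 to 55.7% in GDNF cultures. With TPM summed over transcripts *Adamts10* ranked above it, and *Adamts1* held 20.1 to 52.5% and 21.9 to 45.9%. It was at 169, 144, 119 and 157 CPM in controls and at 231, 195, 183 and 144 CPM in GDNF cultures. GDNF 22 lay among the controls and the other 3 above them, with a log2 fold change of 0.35 ± 0.18 (SE, unadjusted p = 0.072, adjusted p = 0.261). With library size only and in TPM its groups did not overlap.

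*Adamts4* was at 25.5, 37.6, 45.7 and 34.4 CPM in controls and at 39.2, 49.9, 57.5 and 54.6 CPM in GDNF cultures. Control 14 was above GDNF 6 and otherwise the groups were apart. The log2 fold change was 0.49 ± 0.20 (SE, unadjusted p = 0.032, adjusted p = 0.196).

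The other proteoglycanases were read below 4 TPM. *Adamts5* was at 34.4, 18, 2.81 and 26.3 CPM in controls against 12.5 to 14.2 CPM in GDNF cultures, and control 14, which was high for so many members, was its lowest culture. Its log2 fold change was -0.62 ± 0.54 (SE, adjusted p = 0.517). *Adamts9* (0.58), *Adamts15* (0.41) and *Adamts8* (0.89) had log2 fold changes above 0 and *Adamts20* (-0.06) one below, none of them past an unadjusted p of 0.05.

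The procollagen peptidases trim the ends of newly made collagen. *Adamts2*, the main enzyme of this kind, was at 12.6, 23.0, 57.0 and 29.9 CPM in controls and at 9.92, 21.3, 39.4 and 36.0 CPM in GDNF cultures, with a log2 fold change of -0.20 ± 0.49 (SE). Cultures 14 and 17 were highest and 3 and 6 lowest, as they also were for *Col3a1*, a collagen gene at 191, 428, 1363 and 494 CPM in controls and 131, 698, 839 and 473 CPM after GDNF. *Adamts14* (0.19) and *Adamts3* (0.44) had log2 fold changes above 0.

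Among the other Adamts genes were the larger fold changes of the family. *Adamts16*, which is expressed in the developing kidney and gonad, was at 8.93, 22.6, 8.43 and 8.45 CPM in controls and at 39.5, 31.8, 14 and 15.8 CPM in GDNF cultures. Control 7 stood apart from the other controls and inside the GDNF range, and the GDNF cultures fell into a higher pair, 6 and 12, and a lower pair, 17 and 22. In the fit the log2 fold change was 1.06 ± 0.43 (SE, unadjusted p = 0.033, adjusted p = 0.197). GDNF 6, the culture with the highest *Adamts16*, was the lowest GDNF culture for 19 of the 41 members.

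*Adamts17*, known for eye and skeletal defects when mutated, was at 0.194, 0.470, 0.512 and 0.417 CPM in controls and at 0.992, 0.848, 0.750 and 1.16 CPM in GDNF cultures, from 14 to 48 and 73 to 94 counts. It was the one member whose groups did not overlap (1 of 41), beside 13.2% of all genes tested (6.99% in the higher and 6.26% in the lower direction). GDNF over control gave a log2 fold change of 1.23 ± 0.42 (SE, unadjusted p = 0.016, adjusted p = 0.169), and it stayed between 1.01 and 1.37 when any single culture was left out.

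*Adamts10*, which binds fibrillin microfibrils, was at 27.9 TPM by its most counted transcript, a noncoding one, and at 83.8 TPM summed over its 3 listed transcripts, whose counts differed by at most 0.16% within a culture. Its CPM, which add those transcripts, ranged widely, from 52.0 to 248 CPM in controls and from 103 to 312 CPM in GDNF cultures, with a log2 fold change of 0.55 ± 0.45 (SE). *Adamts6* (0.69), *Adamts7* (0.46), *Adamts12* (0.80) and *Adamts18* (0.80) were also above 0, and *Adamts13*, the von Willebrand factor protease, was at -0.25 on at most 35 counts. *Adamts19* had 0 to 21 counts.

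Along the chromosome 9 row, 6 of the 8 tested genes were lower on average after the pulse and 2 higher, with a median log2 fold change of -0.39, against 23 of 33 higher and a median of 0.32 for the tested members elsewhere. None of the 8 was lower at an unadjusted p of 0.05. The row's median was 0.044, with 4 genes on each side of 0, when control 14 was left out, so the direction of the median rested on that culture. Single genes differed: without control 14 *Mmp13* was at -0.66 and *Mmp7* at -0.77, and *Mmp3* turned to 0.18. With library size only the median was -0.15 and with voom -0.27. Taken from the median of all genes on the same scale, these were -0.40 and -0.32, beside -0.42 in the main fit. With a minimum of 1 CPM in 4 cultures, 0 of the row's 5 genes then tested were above 0. Their median was -0.52, or -0.55 from that of all genes.

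Many members varied more between cultures of one group than most genes did. Within groups, the median SD of log2 CPM was 0.70 over the 41 members against 0.34 over all genes tested, and among genes averaging 1 CPM or more it was 0.60 for 34 members against 0.30. Control 14 was the highest control for 24 of the 41 members (58.5%, against 25.2% of all genes) and GDNF 17 the highest GDNF culture for 19 (46.3%, against 26.0%). Control 3 was the lowest control for 23 members (56.1%, against 30.8% of all genes), and GDNF 6 the lowest GDNF culture for 19 (46.3%, against 31.6%).

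The stromal markers of these cultures moved along with that. The 10 stromal markers summed to 580, 1433, 3738 and 1304 CPM in controls 3, 7, 14 and 21 and to 490, 2162, 2591 and 1529 CPM in GDNF cultures 6, 12, 17 and 22. The 8 markers of tubule epithelium summed to 3194, 1250, 484 and 3469 CPM and to 1869, 1194, 1002 and 1024 CPM in the same order. Single epithelial genes differed in direction. In that order the keratin *Krt8* was at 1041, 250, 112 and 1315 CPM and at 285, 223, 270 and 216 CPM (log2 fold change -1.45). *Cdh16* was at 331, 220, 63.8 and 292 CPM and at 557, 258, 131 and 191 CPM (log2 fold change 0.32). The log2 fold changes of *Pax8*, *Cdh1* and *Epcam* were 0.05, -0.28 and -0.54. The sum thus does not stand for each epithelial gene. Within each group, stromal markers were highest in the culture that was highest for the most members (14 and 17) and lowest in the one that was lowest for the most (3 and 6), and their part in the results was not tested. Fewer cells of a type and less RNA per cell cannot be told apart in these bulk libraries.

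The 5 podocyte markers summed to 52.8, 117, 227 and 90.0 CPM in controls 3, 7, 14 and 21. In GDNF cultures 6, 12, 17 and 22 they summed to 54.3, 111, 202 and 137 CPM. Like the stromal markers, they were highest in cultures 14 and 17 and lowest in 3 and 6, and their part was not tested either. Macrophage and endothelial markers summed to less in every culture. The 6 macrophage markers in the tables summed to 4.28 to 18.6 CPM, of which *Ptprc* made 2.25 to 17.5 CPM, with *Csf1r*, *C1qa*, *Mrc1* and *Itgam* under 1 CPM in every culture, and the 6 endothelial markers summed to 18.9 to 61.7 CPM. *Pax8*, the marker of renal epithelium whose promoter drives rtTA in these mice, was at 48.7 to 140 CPM in controls and 83.8 to 151 CPM in GDNF cultures.

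**Figure D5:**
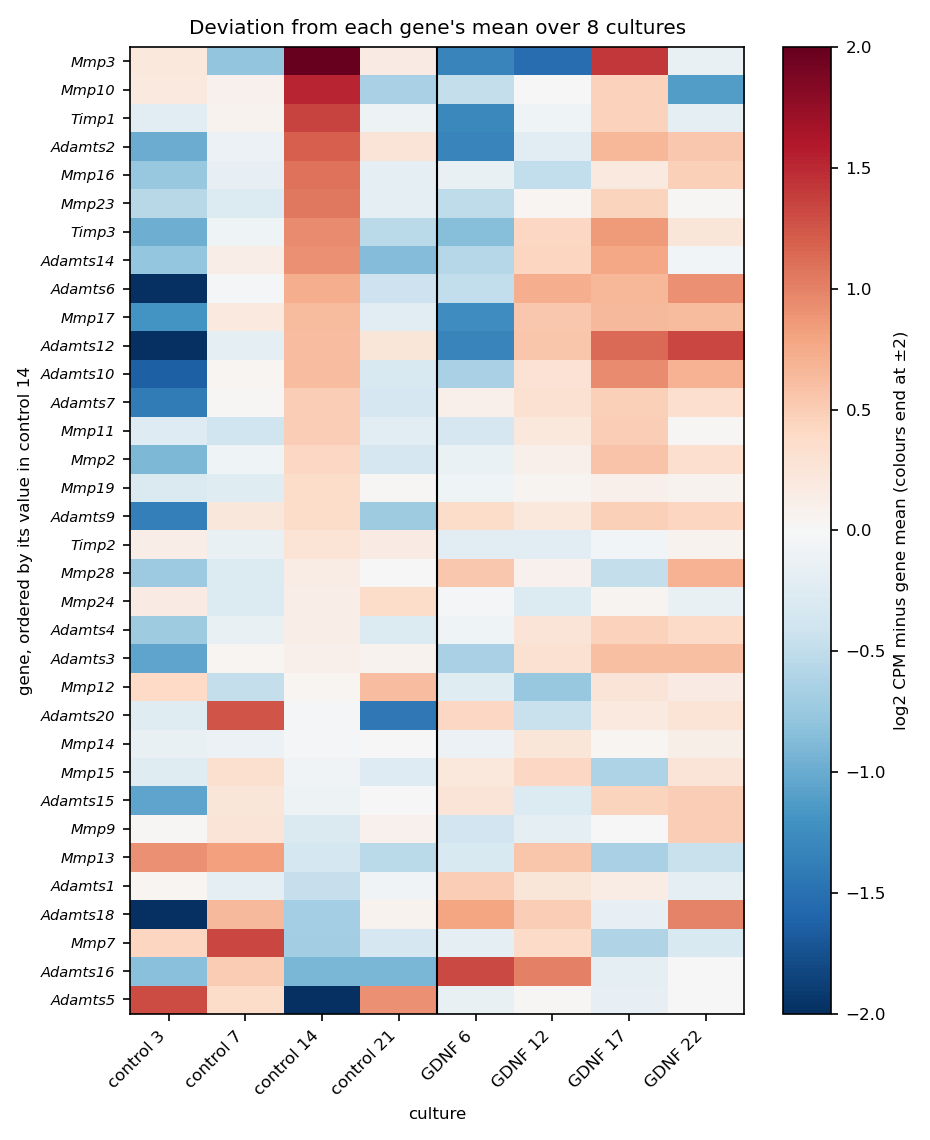
Deviation of log2 CPM from each gene's mean over the 8 cultures, for tested members at 1 CPM or more on average, ordered by the value in control 14; red is above and blue below the mean, and colours end at 2. The column of control 14 is red for most genes and darkest blue for *Adamts5*, and the columns of control 3 and GDNF 6 are mostly blue.

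The cultures also differed in which was higher in TPM, *Xist* or the sum of Y-linked genes, and they are named here by the higher one. *Mmp7* and *Mmp13* were higher in each of the 4 cultures with *Xist* (3, 7, 6 and 12) than in any of the 4 with Y-linked RNA (14, 21, 17 and 22), beside 3.31% of all genes with that pattern, and *Adamts2* was higher in each of the latter, beside 2.32%. Each kind held 2 controls and 2 GDNF cultures, and with it as a covariate 0 members passed an adjusted p of 0.05.

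The enzymes were set beside 71 other genes of matrix turnover (activators, other inhibitors and clearance receptors, ADAM sheddases, ADAMTS-like proteins, matrix substrates and meprins), of which 62 were tested. At an unadjusted p of 0.05, 7 were higher and 5 lower after the pulse, beside 9.25% and 12.9% of all genes, and 0 passed adjustment. The 7 were 5 genes of the basement membrane (*Lama1*, *Lamb1*, *Lamc1*, *Hspg2* and *Nid2*) and 2 ADAMTS-like proteins (*Papln* and *Thsd4*), and the 5 were *Plau*, *Bsg*, *Sdc1*, *Sdc4* and *Spp1*.

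*Lamc1*, the laminin chain found in most basement membranes, was at 19.7, 29.8, 31.8 and 27.0 CPM in controls and at 35.6, 44.2, 47.9 and 42.3 CPM in GDNF cultures, and the groups did not overlap. Its log2 fold change was 0.65 ± 0.17 (SE, unadjusted p = 0.0041, adjusted p = 0.167). *Plau*, the urokinase that activates plasminogen and through plasmin several Mmps, was at 31.1, 7.34, 8.28 and 55.1 CPM in controls and at 7.52, 5.97, 13.6 and 7.64 CPM in GDNF cultures, with controls 3 and 21 high and the rest together. *Bsg*, the cell surface inducer of Mmps, was at 1620, 933, 1061 and 706 CPM in controls and at 745, 730, 562 and 490 CPM in GDNF cultures, where control 21 lay below GDNF 6 and GDNF 12. The log2 fold changes of *Plau* and *Bsg* were -1.55 ± 0.60 and -0.77 ± 0.26 (SE), with unadjusted p of 0.028 and 0.014 and adjusted p of 0.190 and 0.167.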

How the data were processed

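Metalloproteinase and inhibitor RNA was compared between 4 GDNF and 4 control cultures, grouped by their treatment labels. The authors prepared SMART-Seq v4 libraries, aligned paired reads with STAR to mm10 (GRCm38) on the BasePair platform, and deposited one table per culture. STAR, featureCounts and DESeq2 are listed in the submitters' processing notes, and their versions, the use of strand and the treatment of reads shared between genes are not given in the sources used here. For each RefSeq transcript the deposited tables hold a raw count, an FPKM value (the count divided by length and by the table's total) and a TPM value (scaled to one total in each culture). A read shared by transcripts of one gene seems to enter the count of each of them, so sums per gene can hold it more than once.

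Counts were added up per symbol. Genes with low counts were removed by the default filterByExpr, and 16557 genes were compared by the two-sided quasi-likelihood test of edgeR (version 4.0.16, R version 4.3.3) with TMM scaling and Benjamini-Hochberg adjustment. The biological coefficient of variation was 36.8%. Levels between genes were compared in the TPM of each gene's most counted transcript, and FPKM served as an alternative. Simulated data with 200 changed genes among 16557 were used to check the fit: edgeR recovered 34.5% of them at 2-fold and 85% at 4-fold after adjustment. The 200 were drawn at random from all genes tested, so these shares are not those of the members. Depth leaves counting error small beside the spread between cultures, except for members with few counts, where 3 counts served as the detection floor.

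Values per culture are given for members at an unadjusted p of 0.05, members whose groups did not overlap, the Timp genes, *Mmp2*, *Mmp7*, *Mmp9*, *Mmp14* and the 10 highest by TPM. *Adamts2*, *Adamts5* and *Mmp27* were singled out after their values were seen. So were the non-members *Col3a1*, *Lamc1*, *Plau*, *Bsg*, *S100a8*, *Csf3r*, *Krt8*, *Cdh16*, *Cdh1* and *Epcam*. The members and lists were chosen with earlier results of these data known. Alternatives were other scalings, filters and gene counts, DESeq2 1.42.0, limma-voom (limma 3.58.1), a covariate for *Xist* or Y-linked RNA and leaving out each culture. Promoters are from RefSeq (GRCm38.p6), and positions and overlaps from GENCODE M21.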

Additional observations from a re-analysis of the deposited data

Results flagged for a closer look

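Of the 32 groups of 4 cultures examined for the 16 members described culture by culture, 5 held a culture far from the other 3 (a gap above Dixon's 95% critical value), and chance gives about 1 in 20, or about 2. In 3 of them it was control 14, the highest control for *Timp1* (1446 CPM, the others at 491 to 599), *Mmp3* (120 CPM, the others at 17.3 to 34.5) and *Mmp23* (73.6 CPM, the others at 24.2 to 31.0). Control 7 stood above the other controls for *Adamts16* (22.6 CPM, the others at 8.43 to 8.93), and GDNF 12 above the other GDNF cultures for *Timp4* (0.239 CPM, the others at 0.0755 to 0.0867), which rests on 24 counts. Control 14 also had the highest sum of stromal markers, 3738 CPM; the part of this in the 3 values was not tested.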

How the results depend on the processing

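No member passed an adjusted p of 0.05 under any of the alternatives run, with or without each culture. The 4 members higher at an unadjusted p of 0.05 became 7 with library size only (*Adamts1*, *Mmp14* and *Mmp21* were added), 2 with limma-voom (*Adamts4* and *Adamts17*) and 2 with a minimum of 1 CPM in 4 cultures (*Adamts4* and *Adamts16*), and ranged from 2 to 7 when single cultures were left out, 7 without control 14 and 2 without control 21 or GDNF 12. The 0 lower members became 1 without control 14 (*Adamts5*) and 1 without GDNF 17 (*Mmp3*), a range of 0 to 1. Members whose groups did not overlap numbered 4 of 41 with library size only (beside 16.6% of all genes), 3 of 41 in TPM (beside 21.2%) and 1 to 4 without single cultures, and 4 of the 8 omissions gave 4 (control 7, control 14, GDNF 6 and GDNF 12). The members' median log2 fold change ranged from 0.073 to 0.41 without single cultures, and the other matrix turnover genes at an unadjusted p of 0.05 from 8 to 17. Leaving out cultures for the counts of groups that do not overlap and for the order by level was chosen after seeing the data. Among single members, the sign of *Mmp9* turned (-0.20 to 0.10 without single cultures) with library size only (0.21), with upper quartile scaling (0.019), with the 1 CPM minimum (0.0070), and without control 7 (0.074), GDNF 6 (0.10) or GDNF 12 (0.050). *Mmp23* (-0.29 to 0.38) turned with library size only (0.082), limma-voom (0.078), without control 14 (0.38) and without GDNF 6 (0.032), *Timp2* with library size only (0.010), and *Mmp3* (-1.64 to 0.18) without control 14 (0.18). The other 142 of 148 values under other settings and 114 of 120 without single cultures kept their sign and their side of the adjusted threshold. The causes were not tested. No paired analysis was possible because the groups share no culture numbers. With 4 cultures a group, 34.5% of 2-fold changes were recovered after adjustment in simulated data and 73.5% at an unadjusted p of 0.05, so a p above the threshold does not show that a member was alike in both groups.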
